A study of Drosophila melanogaster with 12 samples.

Results

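Sorted enteroblasts that made an activator form of Shavenbaby (SvbACT) were compared with sorted enteroblasts whose label names a hairpin against the same factor, with a UAS transgene on both sides. The members of the comparison are the 3 libraries labelled SvbAct and the 3 labelled RNAiSvb, 6 of the 12 libraries of the study, chosen by those labels. Enteroblasts are the progenitors of the fly midgut that lie between the intestinal stem cell and the absorptive enterocyte. All flies were virgin females, 9 days old, kept for 3 days at room temperature and then for 6 days at 29 °C, which inactivates Gal80TS and lets Gal4 switch on the UAS transgenes. Both groups shared esg-Gal4, UAS-GFP/+ on one chromosome and tubGal80TS on another. SvbACT flies added UAS-SvbACT::GFP, and flies of the other group added UAS-SvbRNAi (VDRC# 41584). Used beside them here were control flies, whose driver line had been crossed to Canton-S (BL#64349), and SvbREP flies with UAS-Svb3Kmut::GFP, 3 libraries each. Guts of more than 20 females were pooled per batch, the posterior midgut (R3 to R5) was kept, and large cells with high GFP were sorted. The driver acts in every cell that expresses escargot, stem cells included, so the enteroblast label rests on the gate for GFP and size. SvbACT itself carries GFP and the hairpin does not, and what that adds to the gated signal cannot be told apart from the genotype.

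Shavenbaby, the product of the ovo locus, is a zinc-finger transcription factor that is made as a long repressor. Small Pri peptides bring the ubiquitin ligase Ubr3 to it, and partial degradation by the proteasome leaves a shorter activator. In the embryonic epidermis it directs the actin and cuticle genes that build trichomes, and in the adult gut it acts in the stem cell lineage. SvbACT is a constitutive form of the activator, so the comparison asks which enteroblast genes differ between forced activator and the hairpin.

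The SvbACT libraries held 6153179, 4279512 and 5615977 counts and the hairpin-labelled libraries 3110008, 5511913 and 6205288. Levels are given as CPM, counts scaled to a common library size by TMM, and 3 counts corresponded to between 0.477 and 0.94 CPM in these 6 libraries. Of 8069 tested genes, 665 had an adjusted p under 0.05 in edgeR's quasi-likelihood F test, which is 8.24% of those tested. These were 473 genes higher in SvbACT (5.86%) and 192 lower (2.38%), and such genes are the ones said to be called, to rise or to fall. A difference of at least 1 on the log2 scale was reached by 376 of the higher and 148 of the lower genes. The 3 libraries of one group lay fully above or below the 3 of the other for 468 of the 473 and 191 of the 192, against 14.5% (SvbACT above) and 13.9% (SvbACT below) of all tested genes. The median log2 fold change of all tested genes was -0.015. SvbACT replicates 2 and 3 stood apart in low-level genes: 930 and 895 genes of the table had no counts there, against 298 in SvbACT replicate 1 and 353 to 508 in the hairpin-labelled libraries. The part of this in decreases of low-level genes was not tested. The replicates are described as biological and made on different days, and p-values measure the spread among these libraries. The number of lower calls was 114 without SvbACT replicate 3 and 118 without hairpin replicate 1, and 336 without SvbREP replicate 3, a library outside the comparison that enters the shared estimate of the spread. Of the called genes picked by the naming rule, 58 kept their call in each of 6 fits that left out 1 library of the comparison, and 46 lost it in at least 1. Beside most of those 46 stands the number of these 6 fits that lost the call.

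**Figure D1:**
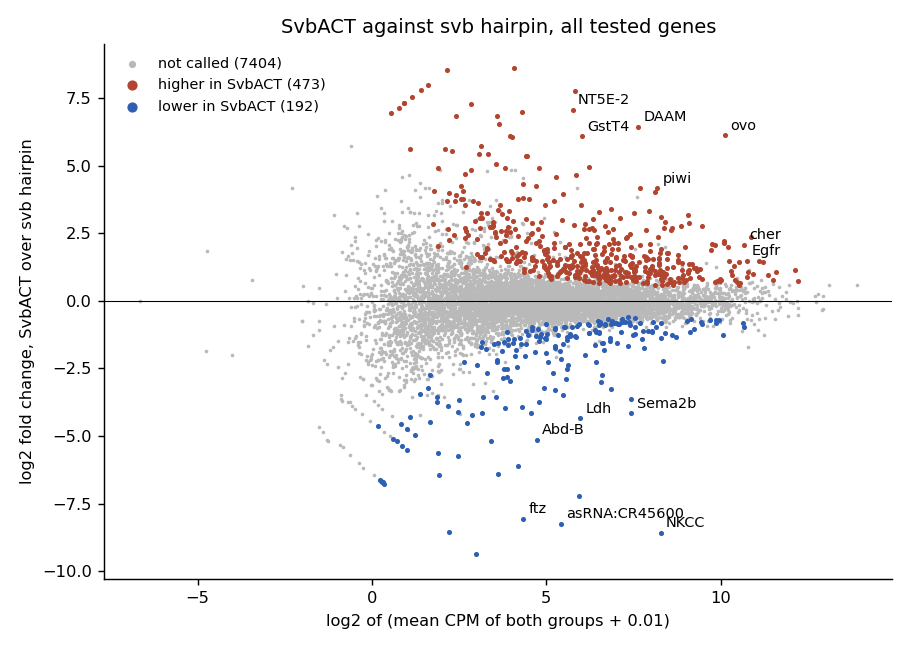
Each point is 1 of 8069 tested genes, with the log2 of its mean CPM over both groups (plus 0.01) on the horizontal axis and the log2 fold change of SvbACT over the libraries labelled svb hairpin on the vertical axis. The 473 genes called higher (red) outnumber the 192 called lower (blue), and the other 7404 are grey. NKCC and asRNA:CR45600 lie far below 0 at moderate levels, and ovo and DAAM far above.

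ovo was examined first, since it checks the labels. The annotation BDGP6.54 places it on the plus strand of chromosome X, between positions 5048273 and 5070929. SvbACT replicates 1 to 3 had 2005, 2037 and 2604 CPM, the hairpin-labelled replicates 61.1, 20.7 and 15.4, and control replicates 2.25, 16.3 and 0.279. The SvbACT libraries were therefore far above all others of the comparison, with a log2 fold change over the hairpin-labelled group of 6.13 ± 0.90 (SE) and an adjusted p of 0.00164 (edgeR). The hairpin-labelled libraries were not below control: 2 of the 3 exceeded every control library, and the log2 fold change over control was 2.16 with an adjusted p of 0.179. Whether a read came from the gene, the transgene or the hairpin could not be separated in counts per gene, so a lower ovo transcript is not shown for these libraries. They are called by their label throughout, and every direction given below is relative to that label.

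A second transcript of the locus moved the other way. lncRNA:CR44833 is annotated on the minus strand from 4956646 to 5063868, and its exons overlap those of ovo. It stood at 3.15, 1.43 and 2.65 CPM in SvbACT, at 29.8, 46.9 and 34.5 CPM in the hairpin-labelled libraries, and at 3.74, 3.77 and 0.279 CPM in control. All 3 hairpin-labelled libraries were thus above those of SvbACT and control, and SvbACT lay in the range of control (log2 fold change -3.91 ± 0.55, adjusted p 0.000128 in edgeR). SvbREP was above control too, at 14.73, 25.26 and 20.55 CPM (log2 fold change over control 2.885, adjusted p 0.00717), so the rise was not particular to the hairpin label. The use of strand in counting is not given in the sources used here, so reads from overlapping genes on opposite strands cannot be told apart. The eye-pigment transporter w, a common marker inside transgenes, was at 3064, 5204 and 4290 CPM in SvbACT and at 2384, 1702 and 1940 CPM in the hairpin-labelled libraries. Its libraries did not overlap (log2 fold change 1.06 ± 0.27, adjusted p 0.0178), but 4 of the 6 fits that left out a library lost the call, with an adjusted p up to 0.106.

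Regulators of the actin cytoskeleton formed the list with the most calls in one direction. Of 33 tested, 10 rose and 0 fell, 30.3% called against 8.24% of all tested genes. The median log2 fold change of the 33 was 0.32 against -0.015 for all tested genes. The summed level of the list ran from 9407 to 9820 CPM in SvbACT, from 5090 to 5396 CPM in the hairpin-labelled libraries and from 7001 to 8083 CPM in control. Between 7 and 10 of the genes were called whichever library was left out.

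DAAM, a formin that nucleates and elongates unbranched actin filaments, showed the widest gap of the list. Its level was 399, 437 and 350 CPM in SvbACT and 6.27, 3.61 and 4.29 CPM in the hairpin-labelled libraries. Control replicates had 114.6, 68.6 and 155 CPM, so control lay between the groups without overlapping either. The log2 fold change between SvbACT and the hairpin label was 6.43 ± 0.41 (adjusted p 8.83e-08 in edgeR). Against control, with which each shares libraries in turn, SvbACT differed by 1.82 and the hairpin label by -4.61.

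The related formin dia had 314, 378 and 381 CPM in SvbACT against 138, 169 and 170 CPM under the hairpin label. Its groups were also separate, but hairpin and control lay together (dia control 140, 151 and 159 CPM), and the log2 fold change was 1.17 ± 0.18 (adjusted p 0.000328). mwh, which limits where wing hairs start and carries a formin-like regulatory domain, had 26.0, 25.7 and 22.5 CPM in SvbACT and 3.76, 7.38 and 1.11 CPM under the hairpin label. It too sat at the hairpin level in control, at 4.99 to 6.98 CPM, and its log2 fold change was 2.59 ± 0.53 (adjusted p 0.00377).

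Arp2, a subunit of the Arp2/3 complex that starts branched filaments, was at 506, 480 and 491 CPM in SvbACT and at 109, 107 and 72.4 CPM under the hairpin label. Control stood between them at 200 to 213 CPM, and the difference was 2.36 ± 0.19 (adjusted p 5.40e-07). Its partner subunit Arp3 rose by 1.12 ± 0.24 (adjusted p 0.00553), but its SvbACT levels of 150 to 202 CPM overlapped those of control, at 153 to 220 CPM. The filament crosslinker filamin, encoded by cher, was among the most abundant transcripts of the list, at 2477, 2709 and 2661 CPM in SvbACT and 614, 606 and 641 CPM under the hairpin label. These cher levels barely varied within a group, and the log2 fold change was 2.08 ± 0.26 (adjusted p 3.92e-05). The bundling protein Fim (fimbrin) rose by 1.29 ± 0.19 (adjusted p 0.000235), with 1664 to 2042 CPM against 664 to 842 CPM. Control libraries overlapped SvbACT for Fim, at 1745 to 2544 CPM, and lay nearer to the hairpin label for cher, at 751 to 930 CPM.

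The other 3 called members changed by less than 1 on the log2 scale, and these and Arp3 were named after their values were seen. capt, the cyclase-associated protein that recycles actin monomers, rose by 0.92 ± 0.21, the elongation factor ena by 0.88 ± 0.21 and the capping protein subunit cpa by 0.75 ± 0.19, with adjusted p of 0.00986, 0.0129 and 0.0189. Profilin (chic) and cofilin (tsr), the abundant monomer-binding and severing proteins, were not called. chic stood at 520 to 939 CPM in SvbACT and 661 to 779 CPM under the hairpin label (-0.08 ± 0.25, adjusted p 0.904). tsr was at 111 to 210 and 143 to 193 CPM (-0.03 ± 0.35, adjusted p 0.977). SCAR, an activator of the Arp2/3 complex added after its values were seen, was at 60.4 to 78.4 and 79.0 to 85.0 CPM (-0.21 ± 0.20, adjusted p 0.628).

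Genes that Shavenbaby is known to direct in embryonic trichomes gave 1 call. Of 15 listed, 11 were in the table and 6 had enough counts to be tested. The zona pellucida domain gene cyr was the 1 called, and it was lower in SvbACT, at 9.11, 9.03 and 6.06 CPM against 32.0, 17.7 and 15.4 CPM (-1.41 ± 0.40, adjusted p 0.0353, a call lost in 5 of the 6 fits with a library left out). The bundling proteins sn (fascin) and f (forked) were not called, with log2 fold changes of -0.76 ± 0.51 and -1.04 ± 0.60.

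Matrix and adhesion genes gave the next group. Of 21 tested genes for basement membrane and integrins, 6 rose and 1 fell, 33.3% called against 8.24% of all tested genes. With 1 library of the comparison left out, 4 or 5 were called higher. LanB2, the laminin gamma chain, had 513, 611 and 589 CPM in SvbACT, 110, 87.0 and 69.6 CPM under the hairpin label and 383, 332 and 467 CPM in control. SvbACT was highest and the hairpin label lowest in every library (2.69 ± 0.22, adjusted p 5.40e-07). by, the fly tensin that links integrins to actin, stood at 310, 312 and 419 CPM against 128, 117 and 122 CPM (1.51 ± 0.24, adjusted p 0.000409). Itgbn, an integrin beta subunit of the midgut, stood at 123 to 148 CPM against 58.9 to 83.4 CPM (0.87 ± 0.19, adjusted p 0.00685), and lost its call without hairpin replicate 1 (adjusted p 0.0653). Itgbn in control was above both groups, at 218 to 260 CPM. mew, an integrin alpha subunit named after its values were seen, was the sixth member to rise, the collagens included (0.60 ± 0.17, adjusted p 0.0381).

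The collagen IV chains Col4a1 and vkg, which lie next to each other on chromosome arm 2L, rose from levels at or near 0. Col4a1 had 18.2, 7.37 and 67.2 CPM in SvbACT, 0, 1.15 and 0 CPM under the hairpin label and 0 in all 3 control libraries (6.09 ± 1.10, adjusted p 0.00316). vkg had 8.61, 4.75 and 20.3 CPM against 1.25, 0.492 and 0.159 CPM (4.23 ± 1.01, adjusted p 0.0121, lost without SvbACT replicate 3, hairpin replicate 2 or hairpin replicate 3). SvbACT replicate 3 was the highest for both chains. Hml, a defining marker of haemocytes, which make much of the fly's collagen IV, had 0 counts in these 9 libraries. The 10 fat body markers in the table, 5 of them tested, summed to 182 to 223 CPM in SvbACT and 148 to 207 CPM under the hairpin label. Of the other listed markers of such cells, crq, a haemocyte scavenger receptor, and wupA, muscle troponin I, also rose (on the log2 scale crq by 2.08, adjusted p 5.61e-05, and wupA by 3.98, adjusted p 0.0347, lost in 5 of the 6 fits). The haemocyte list, with 1 of 4 tested genes rising, summed to 383 to 444 CPM in SvbACT and 138 to 182 CPM under the hairpin label. Its sum in control was 425 to 692 CPM. crq alone held 290 to 394 CPM (SvbACT), 74.4 to 86.1 CPM (hairpin label) and 348 to 599 CPM (control) of these sums. SvbACT was not called against control for crq (-0.42, adjusted p 0.463 in edgeR), and the hairpin label was called lower (-2.49, adjusted p 1.25e-05). The median log2 fold change of the list was -0.09, with 2 of 4 tested genes above 0. The part of other cells in the collagen levels was not tested. The basement membrane and integrin gene that fell was Zasp52, a PDZ and LIM protein of integrin attachments, at 89.1, 94.8 and 169 CPM against 242, 243 and 173 CPM (-0.89 ± 0.23, adjusted p 0.0215, lost in 4 of the 6 fits). Control Zasp52 was above both groups, at 446 to 535 CPM.

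Among 31 tested genes of septate junctions and polarity, 4 rose and 1 fell, 16.1% called against 8.24% of all tested genes. crb, the apical determinant Crumbs, was at 117, 109 and 123 CPM in SvbACT and 22.9, 16.9 and 16.2 CPM under the hairpin label (2.65 ± 0.26, adjusted p 2.48e-06). The crb libraries of SvbACT and control overlapped, control being at 100 to 170 CPM, and the hairpin label was the group apart. Fas2, an immunoglobulin adhesion protein, had 1077, 677 and 629 CPM against 370, 273 and 281 CPM (1.37 ± 0.23, adjusted p 0.000873). The claudin sinu (1.47 ± 0.38, lost in 4 of the 6 fits) and contactin, Cont (0.67 ± 0.18, lost in 5), rose with adjusted p of 0.0227 and 0.0283. Fas3, the adhesion protein fasciclin 3, fell from 37.9, 16.1 and 16.4 CPM to 7.45, 0.475 and 3.79 CPM (-2.51 ± 0.67, adjusted p 0.0336, lost in 3).

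Of 19 cadherins and other adhesion genes, 2 rose and 1, Fas3 again, fell, 15.8% called against 8.24% of all tested genes. Cad87A, a cadherin, stood at 270, 171 and 299 CPM in SvbACT, at 31.0, 38.7 and 19.4 CPM under the hairpin label and at 107, 110 and 144 CPM in control (3.06 ± 0.29, adjusted p 2.21e-06). Cad87A libraries of the 3 groups did not overlap, with control in between. rst, an immunoglobulin adhesion protein, rose by 2.49 ± 0.70 (adjusted p 0.0336, lost in 4 of the 6 fits).

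Secreted and membrane proteases that act on the matrix gave 3 rises and 1 fall among 7 tested. That is 57.1% called, against 8.24% of all tested genes. stl, a protease of the ADAMTS family, had 67.7, 83.4 and 180 CPM in SvbACT and 4.39, 1.80 and 6.83 CPM under the hairpin label (4.66 ± 0.71, adjusted p 0.00169). Control was above both, at 231 to 570 CPM. The matrix metalloprotease Mmp1 had the same order, with 32.8, 74.4 and 56.0 CPM, then 30.4, 30.3 and 20.6 CPM, and 260 to 378 CPM in control (1.00 ± 0.28, adjusted p 0.0297, lost in 5 of the 6 fits and when only the groups compared were fitted). Its inhibitor Timp rose by 0.71 ± 0.20 (adjusted p 0.0343, lost in 5), and the ADAM protease Meltrin fell (-0.87 ± 0.24, adjusted p 0.0326, lost in 5).

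**Figure D2:**
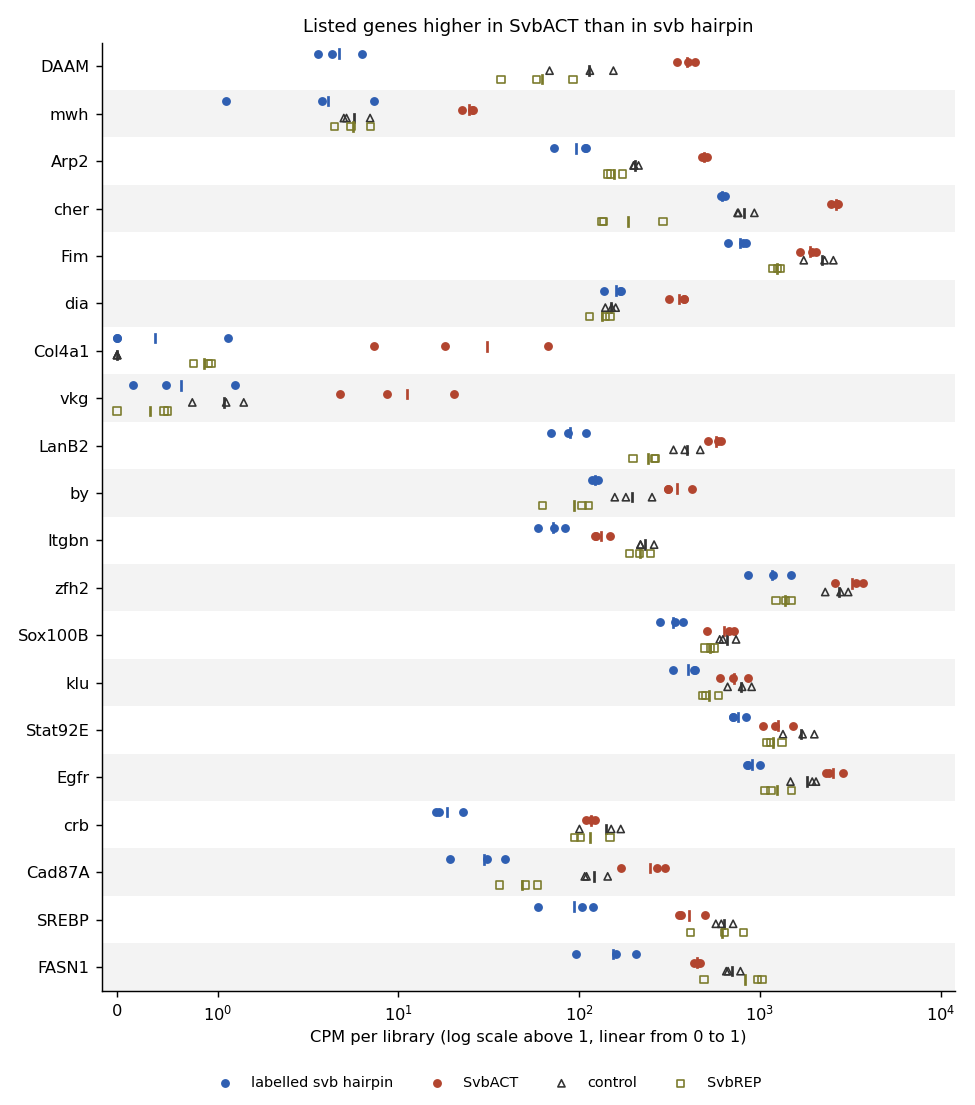
CPM per library (log axis above 1, linear from 0 to 1) of 20 listed genes that were called higher in SvbACT, with 3 points and a bar at the mean per group. Filled red and blue points do not overlap for any gene shown. Open control points lie between them for DAAM and Cad87A, with SvbREP shown as squares.

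Genes that mark progenitor identity moved in both directions: of 12 tested, 4 rose and 2 fell. The share called was 50%, against 8.24% of all tested genes. zfh2, a zinc-finger homeodomain factor, was at 3710, 2598 and 3395 CPM in SvbACT and 1177, 855 and 1480 CPM under the hairpin label (1.47 ± 0.22, adjusted p 0.000287). The HMG-box factor Sox100B was at 510, 722 and 673 CPM against 373, 339 and 280 CPM (0.94 ± 0.19, adjusted p 0.00326). Both genes were at or near their SvbACT level in control, zfh2 at 2294 to 3073 CPM and Sox100B at 598 to 737 CPM. klu, a zinc-finger repressor of enteroblasts, had 857, 597 and 706 CPM against 439, 331 and 433 CPM (0.85 ± 0.20, adjusted p 0.011, lost without SvbACT replicate 1 or hairpin replicate 2). The JAK/STAT transcription factor Stat92E rose by 0.74 ± 0.20 (adjusted p 0.0291, lost in 4 of the 6 fits).

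Delta, the Notch ligand that marks stem cells, fell, at 127, 101 and 77.8 CPM in SvbACT against 377, 354 and 297 CPM under the hairpin label (-1.75 ± 0.47, adjusted p 0.0396). Its groups were well apart, yet each of the 6 fits with a library left out lost the call (adjusted p up to 0.127). Delta in control ranged from 47.4 to 164 CPM, at the SvbACT level. sna, the Snail repressor, was at 0 in all 3 SvbACT libraries and at 21.6, 5.25 and 0.953 CPM under the hairpin label, at least 15.7-fold lower than there by group means against a floor of 3 counts per SvbACT library (adjusted p 0.0379, lost in 5 of the 6 fits and without SvbREP replicate 3). Sox21a, which acts in enteroblasts, was not called, at 236 to 337 CPM and 256 to 443 CPM (-0.25 ± 0.34). Su(H), the Notch effector, was not called either, at 10.2 to 27.6 and 19.4 to 22.9 CPM (-0.17 ± 0.37). escargot itself was not matched to an identifier in the table, so the driver gene is not analysed here.

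Signalling pathways had between 1 and 3 calls each, at shares of 4.76% (Hippo) to 20% (BMP and Activin) of their tested genes. The share over all tested genes was 8.24%. Delta was the 1 call among 17 Notch genes, and the Notch target E(spl)malpha-BFM, at 172 to 348 CPM and 328 to 685 CPM, was not called (-0.80 ± 0.31, adjusted p 0.135). Of 23 EGFR and Ras genes, the receptor Egfr rose, with 2411, 2308 and 2881 CPM against 1005, 861 and 850 CPM (1.49 ± 0.20, adjusted p 9.01e-05). Control Egfr lay between, at 1474 to 2040 CPM. The inhibitor sty (Sprouty) fell, with 982 to 1220 CPM against 1297 to 2734 CPM (-0.96 ± 0.28, adjusted p 0.0441, lost in 5 of the 6 fits).

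In the BMP and Activin pathway, 1 of 15 tested genes rose and 2 fell, 20% called against 8.24% of all tested genes. The BMP ligand dpp had 49.0, 16.9 and 5.68 CPM in SvbACT and 0, 0.492 and 0 CPM under the hairpin label (6.82 ± 1.36, adjusted p 0.00439). The dpp level varied widely within SvbACT, yet the groups stayed apart. The Activin-type ligand daw had the reverse pattern, with 1.16, 0 and 0.379 CPM against 6.90, 21.0 and 34.3 CPM (-5.18 ± 0.98, adjusted p 0.00198). The glypican dally, which shapes ligand spread, fell from 709, 810 and 759 CPM to 350, 377 and 308 CPM (-1.14 ± 0.19, adjusted p 0.000656).

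Of 11 JAK/STAT genes, 18.2% were called: Stat92E rose and the ligand upd2 fell, at 1.49, 2.38 and 2.65 CPM against 11.6, 8.20 and 11.4 CPM (-2.26 ± 0.58, adjusted p 0.0214, lost in 5 of the 6 fits). nkd, a feedback inhibitor of Wingless signalling, was the 1 call among 18 genes of that pathway and fell from 280, 233 and 231 CPM to 85.6, 58.2 and 90.5 CPM (-1.66 ± 0.21, adjusted p 5.41e-05). In the Hippo pathway, crb was the 1 call of 21 genes. Its effector yki was at 41.3 to 65.3 CPM in SvbACT and 58.6 to 75.8 CPM under the hairpin label (-0.24 ± 0.25, adjusted p 0.648).

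Of 17 tested genes of lipid storage and synthesis, 5 rose, 0 fell and 12 were not called. The share called was 29.4%, against 8.24% of all tested genes. SREBP, the transcription factor that switches on fatty acid synthesis, had 356, 363 and 497 CPM against 119, 103 and 59.4 CPM under the hairpin label (2.12 ± 0.28, adjusted p 6.88e-05). Fatty acid synthase, FASN1, had 433, 452 and 465 CPM against 207, 160 and 95.8 CPM (1.55 ± 0.28, adjusted p 0.00141). Both were still higher in control, SREBP at 570 to 710 CPM and FASN1 at 651 to 779 CPM. The sterol-binding Npc2a, the acetyl-CoA carboxylase ACC and the desaturase Desat1 rose by 1.31 ± 0.35, 0.98 ± 0.29 and 0.59 ± 0.17, with adjusted p of 0.0294, 0.0438 and 0.0394. The Npc2a call was lost in 4 of the 6 fits and those of ACC and Desat1 in all 6, so that 2 or 3 of the 5 remained in count whichever library was left out.

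Of 14 tested genes of adenosine metabolism, 2 enzymes rose and the receptor fell, 21.4% called against 8.24% of all tested genes. NT5E-2, a 5'-nucleotidase that releases adenosine from AMP, had 118, 86.5 and 117 CPM in SvbACT, 0.940, 0.328 and 1.11 CPM under the hairpin label and 0.558 to 2.00 CPM in control (7.07 ± 0.49, adjusted p 8.83e-08). The 3 SvbACT libraries were the high ones of these 9. Adgf-A, a secreted adenosine deaminase, had 74.2, 87.4 and 70.4 CPM against 12.5, 10.3 and 6.51 CPM (3.00 ± 0.25, adjusted p 6.64e-07), and there the hairpin label was the group apart, since control stood at 79.3 to 82.4 CPM. The adenosine receptor AdoR fell, at 3.31, 0.950 and 13.3 CPM against 60.5, 46.2 and 60.7 CPM (-3.23 ± 0.62, adjusted p 0.00486). The other 11 genes of that list were not called.

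Of 25 tested glutathione S-transferases, the detoxifying enzymes that conjugate glutathione, 3 rose and 1 fell. That is 16% called, against 8.24% of all tested genes. GstT4 had 154, 117 and 117 CPM in SvbACT, 1.25, 2.79 and 1.43 CPM under the hairpin label and 7.24 to 14.1 CPM in control (6.08 ± 0.41, adjusted p 8.83e-08). GstE11 rose by 1.59 ± 0.32 (adjusted p 0.00361) and GstT3 by 0.93 ± 0.28 (adjusted p 0.0449, lost in all 6 fits), and GstD9 fell (-1.58 ± 0.41, adjusted p 0.0232, lost in 3). These genes belong to families of similar copies, among which the authors' counting could divide reads. The gene 46 bp from GstT4, CG1998, was at 4.80, 8.08 and 3.03 CPM in SvbACT and at 0 in all 3 hairpin-labelled libraries, at least 8.34-fold higher against a floor of 3 counts per library (adjusted p 0.000389). For CG1998, SvbACT was not called over control (1.99, adjusted p 0.135). CG1998 was highest in SvbREP, at 9.57, 11.2 and 16.8 CPM (3.226 over control, adjusted p 0.02525), where GstT4 was lower than in control (-2.59, adjusted p 0.00211).

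Other genes among the 12 largest increases with a mean log2 CPM of at least 2 and separate groups had varied functions. Pkg21D, a cGMP-dependent protein kinase, had 87.1, 154 and 192 CPM against 7.52, 1.48 and 5.88 CPM (4.93 ± 0.60, adjusted p 0.000197). Acsx4, of the acyl-CoA synthetase family, had 39.6, 53.7 and 67.6 CPM against 2.82, 0.983 and 1.75 CPM (4.92 ± 0.46, adjusted p 1.85e-06). alpha-Est1, a carboxylesterase, had 36.6, 66.1 and 21.2 CPM against 3.14, 0.164 and 0.477 CPM (5.34 ± 0.83, adjusted p 0.000966). Control was at the SvbACT level for Pkg21D (130 to 184 CPM) and alpha-Est1 (15.8 to 44.4 CPM) and overlapped its lower end for Acsx4 (18.3 to 42.4 CPM).

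Ugt49B1, a UDP-glycosyltransferase, had 36.9, 28.0 and 62.7 CPM in SvbACT and 0, 2.29 and 0.477 CPM under the hairpin label (5.34 ± 0.71, adjusted p 8.89e-05). Here control stayed low, at 0.998 to 2.51 CPM. CG34370 was likewise at 51.7, 16.6 and 26.5 CPM against 0.627, 0.328 and 0.477 CPM, with 0 in control (6.04 ± 0.84, adjusted p 0.000213). mfr (misfire), a ferlin-type gene known from male fertility, had 51.8, 44.0 and 22.3 CPM against 1.25, 0 and 0 CPM, with 0 counts in all control and SvbREP libraries (6.99 ± 0.99, adjusted p 0.000915, not called by DESeq2).

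CG17145 had 62.9, 58.7 and 216 CPM in SvbACT against 0, 0 and 1.27 CPM (7.74 ± 1.42, adjusted p 0.00651), and CG9815 had 30.5, 30.9 and 7.57 CPM against 1.25, 0.328 and 0.636 CPM (5.05 ± 0.91, adjusted p 0.00204). In control, CG17145 was near SvbACT replicates 1 and 2, at 46.4 to 70.9 CPM. Receptors for the biogenic amines octopamine and tyramine were 2 of 6 called, 33.3% against 8.24% of all tested genes. Octbeta2R had 43.7, 20.9 and 50.2 CPM against 2.82, 1.31 and 1.91 CPM (4.31 ± 0.38, adjusted p 1.08e-06), and TyrR rose by 1.72 ± 0.23 (adjusted p 8.10e-05). Both were higher in control than in either group, Octbeta2R at 85.5 to 131 CPM and TyrR at 179 to 265 CPM, with TyrR overlapping SvbACT there.

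Among decreases with a mean log2 CPM of at least 2 and separate groups, the largest belonged to NKCC, the cotransporter that carries sodium, potassium and chloride into cells, at 5489505 to 5502702 on chromosome arm 3R. It had 0.662, 4.75 and 0 CPM in SvbACT, 670, 653 and 537 CPM under the hairpin label and 1.95 to 3.49 CPM in control. NKCC was thus high in the hairpin-labelled libraries and near the floor in the others, SvbREP included at 0.758 to 3.27 CPM, and the log2 fold change was -8.56 ± 0.71 (adjusted p 9.27e-06). No fit with a library left out lost the NKCC call (adjusted p up to 0.000108). Of the 8 genes within 20 kb, Itpr, the IP3 receptor, was called, in the opposite direction (1.27, adjusted p 0.000444), and CG31550, 16 bp away, was not called (0.14, adjusted p 0.82). NKCC was the 1 call among 7 tested genes of its cation chloride cotransport list, 14.3% called against 8.24% of all tested genes.

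Other large decreases lay at one locus on chromosome arm 3R. asRNA:CR45600, annotated from 15136985 to 15140121, had 0.331, 0.475 and 0 CPM in SvbACT, 93.7, 59.0 and 103.9 CPM under the hairpin label and 69.9 to 82.3 CPM in control (-8.24 ± 0.51, adjusted p 4.12e-08). CG6912, which overlaps it on the same strand, had 2.15, 0 and 0 CPM against 181, 95.9 and 91.8 CPM and 82.2 to 157 CPM in control (-7.20 ± 0.79, adjusted p 8.39e-05). CG3984, which overlaps it on the other strand, had 0, 0.238 and 0.568 CPM against 34.5, 17.9 and 20.0 CPM (-6.40 ± 0.77, adjusted p 3.18e-05). For these 3 genes SvbACT was the group apart from both others, and reads of overlapping genes could not be assigned to one of them with certainty. SvbREP was also low, at 1.87 to 4.25 CPM for asRNA:CR45600 and 0.467 to 3.03 CPM for CG6912. CG3987, at the same locus, was not called, at 8.33 to 10.8 CPM against 6.99 to 21.0 CPM (-0.37 ± 0.36).

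On the list of Hox genes and cofactors, 2 of 7 tested genes fell and 0 rose, the homeotic gene Abd-B and ftz, which is not homeotic. The share called was 28.6%, against 8.24% of all tested genes. Abd-B, the posterior Hox gene, had 1.32, 0.475 and 2.46 CPM in SvbACT and 52.4, 51.1 and 51.8 CPM under the hairpin label (-5.13 ± 0.51, adjusted p 3.16e-06). The hairpin-labelled values varied by little and exceeded control, at 6.98 to 11.7 CPM, in every library. ftz, a pair-rule gene of the Antennapedia cluster, had 0.331, 0 and 0 CPM against 41.1, 28.2 and 50.7 CPM (-8.05 ± 0.83, adjusted p 5.05e-06), with control at 0.279 to 1.75 CPM. Ubx had 0 counts in these 6 libraries, and exd, a Hox cofactor, was not called (-0.69 ± 0.38, adjusted p 0.317).

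Sema2b, a secreted semaphorin that guides axons, had 16.6, 22.6 and 16.7 CPM in SvbACT, 329, 438 and 215 CPM under the hairpin label and 41.3 to 74.1 CPM in control (-4.14 ± 0.30, adjusted p 1.42e-07). The order of the 3 groups held in every library. Pde1c, a cyclic nucleotide phosphodiesterase, had 0.166, 0 and 1.33 CPM against 39.5, 25.7 and 43.9 CPM (-6.09 ± 0.98, adjusted p 0.000877). CG6330 had 3.81, 2.14 and 1.51 CPM against 25.1, 51.1 and 59.4 CPM (-4.16 ± 0.40, adjusted p 2.48e-06).

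smal had 7.78, 1.90 and 1.51 CPM against 83.4, 23.9 and 46.9 CPM (-3.72 ± 0.55, adjusted p 0.000409), and rdo had 3.31, 0 and 1.51 CPM against 21.3, 13.8 and 44.0 CPM (-3.96 ± 0.79, adjusted p 0.00296). smal was low in SvbACT alone of the 4 groups, and rdo high under the hairpin label alone: control stood at 31.7 to 36.8 CPM for smal and at 0.279 to 0.998 CPM for rdo. On the ecdysone response list 3 of 17 genes fell, 17.6% called against 8.24% of all tested genes. Among them, Ldh, lactate dehydrogenase, had 5.80, 1.19 and 10.4 CPM against 71.2, 155 and 131 CPM (-4.33 ± 0.69, adjusted p 0.00135). ImpL2, a secreted antagonist of insulin signalling, had 49.5, 15.9 and 12.3 CPM against 189, 425 and 352 CPM (-3.62 ± 0.87, adjusted p 0.0297, lost in 4 of the 6 fits). The metamorphosis factor Eip93F fell less (-1.25 ± 0.27, adjusted p 0.00545).

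**Figure D3:**
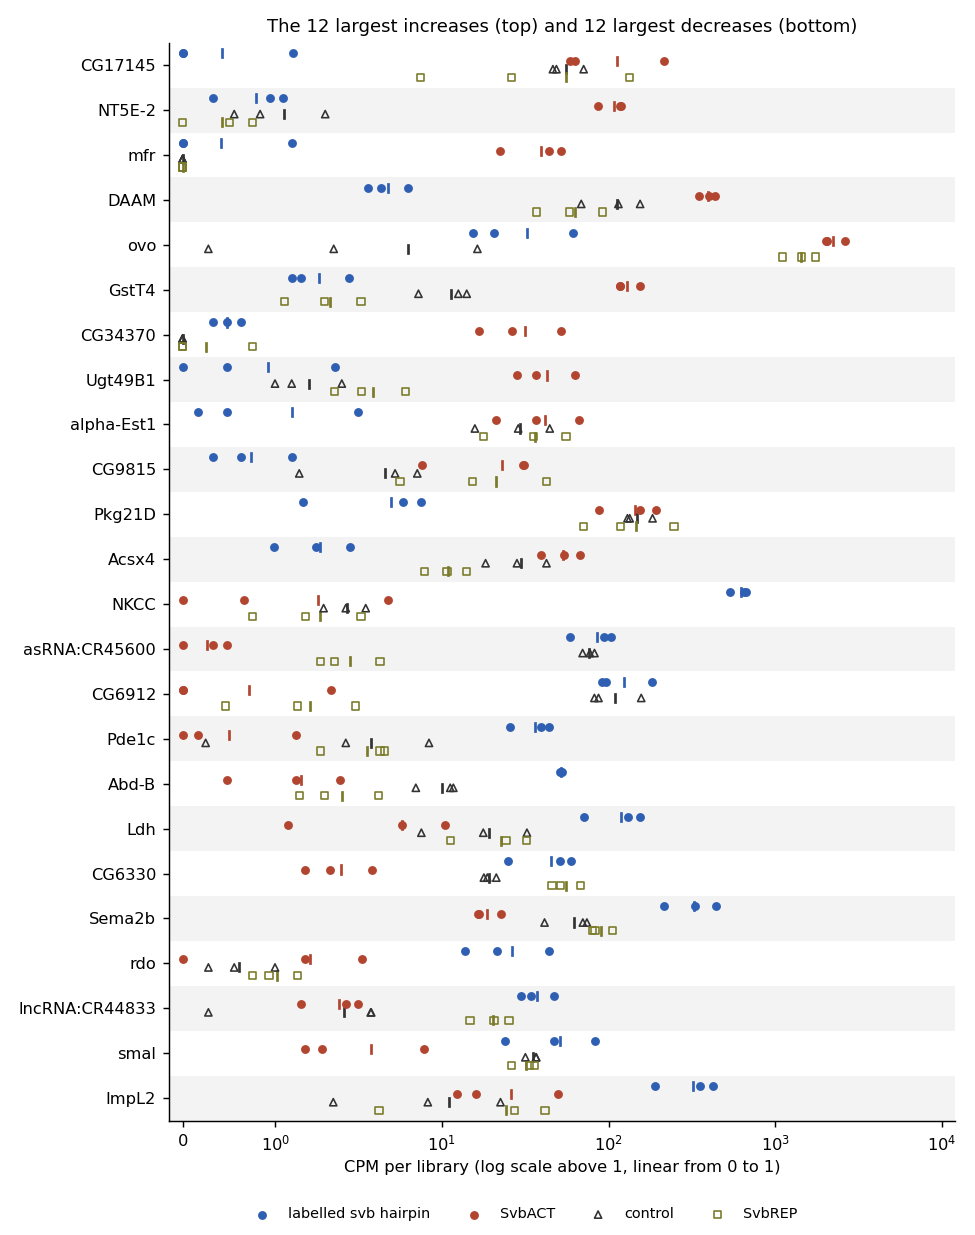
CPM per library (log axis above 1, linear from 0 to 1) of the 12 largest increases and the 12 largest decreases between SvbACT (red) and the libraries labelled svb hairpin (blue), with a bar at each group mean. They were taken among called genes with a symbol, a mean log2 CPM of at least 2 and no overlap of libraries. Control (triangles) lies with SvbACT for Pkg21D and alpha-Est1 and with the hairpin label for asRNA:CR45600 and CG6912, and NKCC is above 500 CPM in the hairpin-labelled libraries and under 5 CPM in all others.

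Germline genes gave 2 rises and 1 fall among 15 tested, 20% called against 8.24% of all tested genes. piwi, the nuclear Argonaute that silences transposons, had 575, 559 and 519 CPM in SvbACT, 36.7, 36.4 and 19.2 CPM under the hairpin label and 8.09 to 18.7 CPM in control (4.17 ± 0.29, adjusted p 8.83e-08). The SvbACT libraries were all high and close together, and piwi overlaps SCAR on the other strand, which was not called. nanos, a translational repressor of germ cells, had 5.13, 3.56 and 3.98 CPM against 0, 0.164 and 0 CPM (5.62 ± 1.52, adjusted p 0.028, lost in 5 of the 6 fits). AGO3, a cytoplasmic Argonaute of the same pathway, fell from 93.1, 73.6 and 51.5 CPM to 34.3, 34.2 and 19.9 CPM (-1.30 ± 0.29, adjusted p 0.00667). ovo is itself a germline regulator, and no member of the list other than these 3 was called.

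Of 84 tested genes of the respiratory chain and ATP synthase, 13 were above 0, with a median log2 fold change of -0.45. Among the 84, 7 fell and 1 rose, 9.52% called, near the 8.24% of all tested genes. Examples are the complex I subunits ND-B14 (-1.51 ± 0.39, adjusted p 0.0196, lost in 3 of the 6 fits) and ND-30 (-0.91 ± 0.21, adjusted p 0.0106, lost without SvbACT replicate 2 or hairpin replicate 2), and the ATP synthase subunit ATPsynC (-0.82 ± 0.21, adjusted p 0.0188, lost in 3). The number that fell was 0 without SvbACT replicate 2, 2 without SvbACT replicate 3 or hairpin replicate 2, 3 without hairpin replicate 1 and 12 without SvbACT replicate 1. Of 69 mitochondrial ribosomal proteins 0 were called, with a median of -0.39. Of 78 cytoplasmic ribosomal proteins 3 rose, a smaller share than that of all genes, and the median was 0.31. RpL23, RpL26 and RpL13 were those 3, and 0 were called without SvbACT replicate 2, SvbACT replicate 3, hairpin replicate 1 or hairpin replicate 2.

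Of 22 heat shock proteins, 3 fell, 13.6% called against 8.24% of all tested genes. Largest was the fall of the co-chaperone stv, at 133, 156 and 215 CPM against 349, 438 and 293 CPM (-1.10 ± 0.22, adjusted p 0.00272). Control stv was above both groups, at 525 to 699 CPM. 0 of 28 DNA replication genes were called, and msps, a microtubule polymerase, was the 1 call of 41 mitosis genes, at 621, 508 and 552 CPM against 243, 222 and 236 CPM (1.26 ± 0.17, adjusted p 0.000101). Of 16 apoptosis genes, 18.8% were called, against 8.24% of all tested genes. The caspase Strica (2.48 ± 0.54, adjusted p 0.0082, lost without hairpin replicate 2) and the inducer hid (1.62 ± 0.48, adjusted p 0.0468, lost in 4 of the 6 fits) rose, and the caspase Dcp-1 fell (-1.53 ± 0.44, adjusted p 0.0372, lost in 4). Control was above both groups for hid, at 37.8 to 57.7 CPM, with SvbACT at 5.70 to 21.5 CPM. SvbACT was called lower than control there (-1.87, adjusted p 0.0254). pirk, an inhibitor of the Imd immune pathway, was the 1 call of 14 genes there, with 298, 232 and 247 CPM against 76.2, 71.3 and 91.7 CPM (1.70 ± 0.19, adjusted p 1.53e-05).

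Of 10 tested chitin genes 2 were called, 20% against 8.24% of all tested genes. The chitin synthase Chs2 rose by 1.48 ± 0.44 (adjusted p 0.0484, lost in 5 of the 6 fits and under RLE or upper-quartile scaling). The chitinase Cht2 fell (-3.88 ± 1.01, adjusted p 0.0313, lost in 4 of the 6 fits and when only the groups compared were fitted). The proteasome list held 1 call of 31, and that gene, Prosap, is a synaptic scaffold caught by its name and no proteasome subunit (1.66 ± 0.27, adjusted p 0.000514). Of 21 insulin and TOR genes, ImpL2 was the 1 call, and of 14 JNK and AP-1 genes it was Mmp1. 0 of 16 proton pump genes were called.

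Markers of other gut and body cells were read as a check of the sort. In bulk RNA, fewer cells of a type and less RNA per cell cannot be told apart. Of 40 tested enterocyte markers 1 was called, the unconventional myosin Myo31DF, at 344, 480 and 367 CPM against 230, 268 and 226 CPM (0.72 ± 0.19, adjusted p 0.0265, lost in 5 of the 6 fits). The median of that list was 0.73 with 31 of 40 above 0, and its summed level ran from 789 to 1474 CPM in SvbACT, from 589 to 753 CPM under the hairpin label and from 960 to 1588 CPM in control. nub, a transcription factor that marks enterocytes, was at 0.379 to 12.4 CPM and 3.02 to 33.6 CPM. The part of enterocyte RNA in the results above was not tested.

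Of 20 tested enteroendocrine markers 2 fell, 10% called against 8.24% of all tested genes. The median log2 fold change of that list was -0.35, with 10 of 20 above 0. ITP, a peptide hormone, had 277, 249 and 154 CPM against 544, 534 and 558 CPM (-1.27 ± 0.32, adjusted p 0.023, lost in 5 of the 6 fits). CCHa1, another peptide, had 0 in SvbACT and 0.940 to 3.44 CPM under the hairpin label, at least 4.07-fold lower by the same floor (adjusted p 0.0485, lost in all 6). The defining factor pros was at 0.950 to 7.57 CPM against 11.5 to 29.1 CPM (-1.96 ± 0.62, adjusted p 0.0607). The summed level of the list was 898 to 1254 CPM in SvbACT, 1149 to 1398 CPM under the hairpin label and 2143 to 3187 CPM in control, and its part in the results was not tested.

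Of 14 visceral muscle markers, vkg and wupA (troponin I) rose and Zasp52 fell, 21.4% called against 8.24% of all tested genes. wupA had 11.1, 10.2 and 4.92 CPM against 0, 0.820 and 0.636 CPM (3.98 ± 1.12, adjusted p 0.0347, lost in 5 of the 6 fits). Mlc1 was at 0 in SvbACT and at most 0.940 CPM under the hairpin label, and Mhc was at 1.99 to 7.38 and 2.22 to 3.44 CPM. The sum of the list, 6765 to 9719 and 8663 to 11090 CPM, was mostly Msp300, which was not called (-0.30, adjusted p 0.391). Of 4 tested haemocyte markers, crq, a scavenger receptor also known outside haemocytes, rose from 78.7, 74.4 and 86.1 CPM to 324, 290 and 394 CPM (2.08 ± 0.27, adjusted p 5.61e-05), while Hml was at 0. Control crq overlapped SvbACT, at 348 to 599 CPM, and the hairpin label was the group apart. On the tracheal list, with 5 tested genes, Mmp1 rose and bnl, the FGF ligand, fell (-2.27 ± 0.56, adjusted p 0.0216, lost in 4). Mmp1 is also on the matrix protease list. These calls are 40% of the tested tracheal genes, against 8.24% of all tested genes. The part of tracheal cells in them was not tested. 0 of 5 fat body and 0 of 7 neuron markers were called, though the neuronal marker elav was detected in both groups, at 124 to 174 and 110 to 160 CPM.

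**Figure D4:**
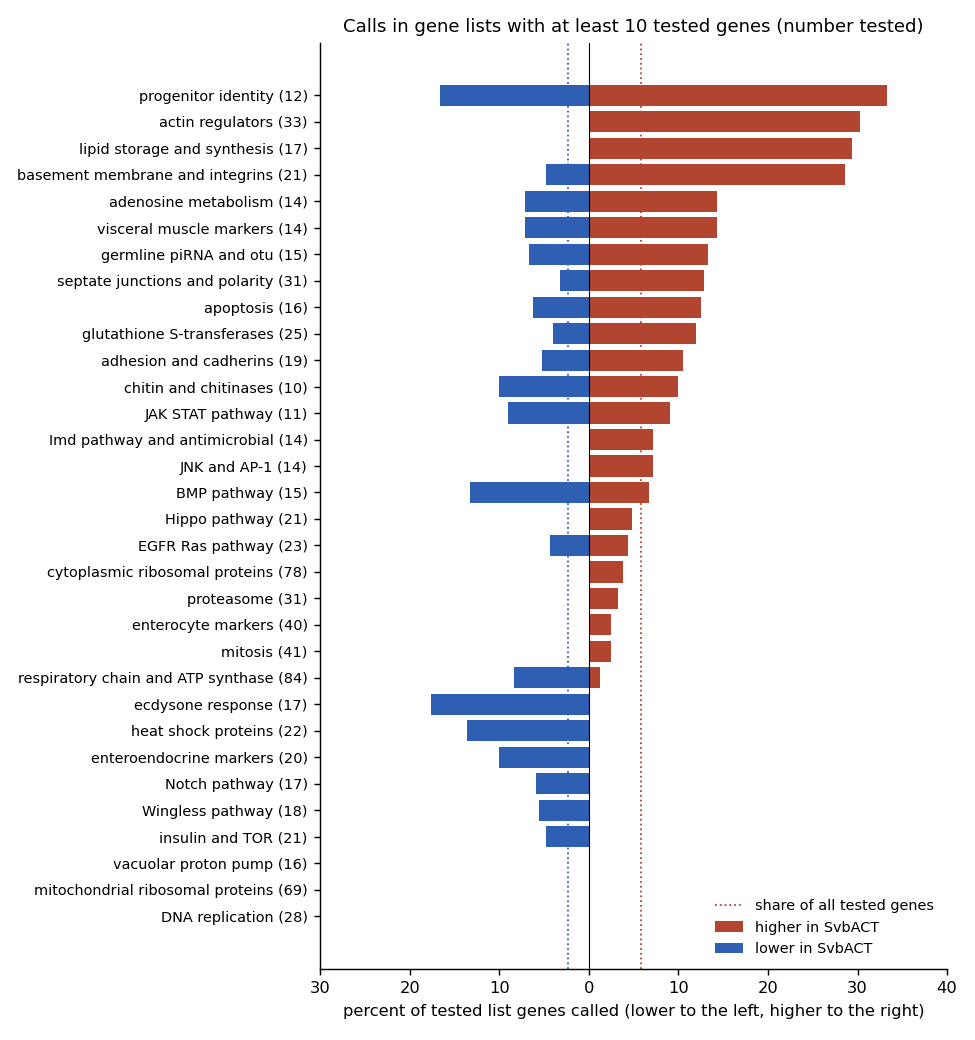
For each list with at least 10 tested genes (number in brackets), the percent called higher in SvbACT is drawn to the right in red and the percent called lower to the left in blue. Dotted lines mark the shares of all 8069 tested genes, 5.86% higher and 2.38% lower. Actin regulators, with 10 of 33 higher and 0 lower, and lipid genes, with 5 of 17 higher and 0 lower, extend to the right only.

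The control libraries give a position for each called gene, as a description, since a gene chosen for a difference between 2 means leaves more room between them. By group means, control lay between SvbACT and the hairpin label for 269 of the 473 higher genes (56.9%), above both for 173 and below both for 31. Of the 192 lower genes, control lay between for 138 (71.9%), above both for 36 and below both for 18. The share over all tested genes was 36.8%. Against control, with shared libraries, 4.46% of tested genes were called for SvbACT (1.91% higher, 2.55% lower) and 8.5% for the hairpin label (1.85% higher, 6.66% lower). DAAM, Egfr and Cad87A are examples of the first kind, and stl, SREBP and Octbeta2R of a control above both.

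SvbREP and control share no library with the comparison, so the called genes were followed there. SvbREP replicate 3 had the fewest counts of the 12 libraries, 2186283, and the most genes without counts, 1013. What this adds to the SvbREP values was not tested. Both comparisons came from the same fit over all 12 libraries, with a shared estimate of each gene's spread and shared scaling. The part of this in the genes called in both was not tested. SvbREP differed from control at 168 genes (2.08%), 59 higher (0.731%) and 109 lower (1.35%). The split depended on the fit: 35.1% of the calls were higher here, 53.7% when only SvbREP and control were fitted and 49.1% with a gene-length offset. Of the 473 genes higher in SvbACT, 161 (34%) were above 0 in SvbREP over control against 48.4% of all tested genes, and their median was -0.26 against -0.02. Among them, 50 were called lower in SvbREP than in control, which is 10.6% of the 473 and 45.9% of the 109, and 18 were called higher, which is 3.81% of the 473 and 30.5% of the 59. Of the 192 genes lower in SvbACT, 98 (51%) were above 0, with a median of 0.03, and 14 were called higher (7.29% of the 192, 23.7% of the 59) and 7 lower (3.65%, and 6.42% of the 109). Leaving out 1 library of SvbREP or control moved the 168 calls to between 54 and 242.

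Examples show both kinds. cher had 134, 291 and 136 CPM in SvbREP against 751, 759 and 930 CPM in control (-2.12, adjusted p 0.000259), the reverse of its rise in SvbACT. GstT4 was likewise lower in SvbREP, at 1.97, 1.14 and 3.27 CPM against 7.24, 14.1 and 12.6 CPM (-2.59, adjusted p 0.00211), and so were Cad87A (-1.29, adjusted p 0.0173), by (-1.09, adjusted p 0.0213) and zfh2 (-0.99, adjusted p 0.0224). CG6330 was higher in SvbREP than in control (1.52, adjusted p 0.024), and Delta too, at 809, 619 and 232 CPM against 149, 164 and 47.4 CPM (2.21, adjusted p 0.0332). In contrast, asRNA:CR45600 and CG6912 were lower in SvbREP (-4.69 and -5.81, adjusted p 3.26e-06 and 0.00122) as they were in SvbACT. NKCC, piwi and NT5E-2 were not called between SvbREP and control (-0.87, -0.65 and -1.03, adjusted p 0.756, 0.367 and 0.555).

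**Figure D5:**
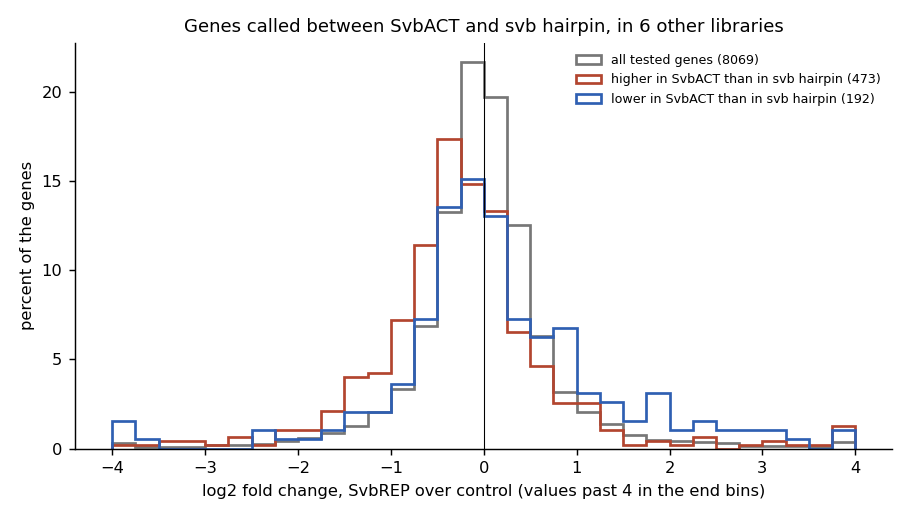
Distribution of the log2 fold change of SvbREP over control, in percent of the genes per bin of 0.25, for all 8069 tested genes (grey), the 473 genes higher in SvbACT than under the hairpin label (red) and the 192 lower (blue). The red outline lies to the left, with a median of -0.26, and the blue outline has a median of 0.03.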

How the data were processed

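Read counts per gene were deposited by the authors as whole numbers for 8802 genes in 12 libraries, made with the Ovation SoLo kit and sequenced as single reads of 100 nt per the labels. Per the submitters' processing notes, tools were FastQC 0.11.5, STAR 2.5.2b, HTSeq 0.6.0 and edgeR, with build dm6. Their settings, the use of strand and the filter on genes are not given in the sources used here. The other columns of the authors' table were not used. Symbols and positions for 8686 genes came from the BDGP6.54 annotation.

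The fits used edgeR 4.0.16 in R 4.3.3: filterByExpr, TMM scaling, 1 mean per group over all 12 libraries, robust quasi-likelihood fits and F tests, Benjamini-Hochberg adjustment over 8069 genes within each comparison, threshold 0.05. The SE is the log2 fold change divided by the square root of F. Fold changes in the text are log2 values, with the group named first as the numerator and SvbACT over the hairpin label where none is named. The common biological coefficient of variation was 34.6%. Floors of 3 counts cover counting error only, since reads carried no molecular identifiers. The pipeline was tested on simulated data.

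The groups compared, 43 gene lists and the naming rule were chosen with earlier results of these data known. The rule took ovo, w, lncRNA:CR44833, the 12 largest increases and decreases with an adjusted p under 0.05, a mean log2 CPM of at least 2 and no overlap of libraries, and up to 6 called genes per list. Genes named as not called define their list. Alternatives changed scaling, filter, tool (DESeq2 1.42.0), libraries, replicate block, robustness, effect size, gene length, depth and each replicate. List counts under these alternatives were a later addition, made after seeing the data. Sequences and raw reads were not analysed here.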

Additional observations from a re-analysis of the deposited data

How the results depend on the processing

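No named gene changed direction under any alternative. For SvbREP against control the share of calls that were higher, 35.1%, became 53.7% when only the groups compared were fitted, which turns the majority direction, and 49.1% with a gene-length offset; the cause was not tested. The 665 calls (473 higher, 192 lower in SvbACT) were 453 to 687, with 335 to 440 higher and 114 to 247 lower, when 1 library of the comparison was left out. DESeq2 called 353 lower genes and 994 in all, 663 of them among the 665. A test against a log2 fold of 1 left 200 genes, 158 higher and 42 lower. Without SvbREP replicate 3 there were 336 lower calls. For SvbREP against control, the 168 calls became 321 with DESeq2, 27 against a log2 fold of 1, and 54 to 242 with 1 library left out. The share of calls that were higher in SvbACT, 71.1%, ranged from 64 to 79% over all alternatives.

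Deviations from the group means correlated weakly across genes between same-numbered libraries of SvbACT and the hairpin label, at 0.0105, 0.0923 and 0.0201. Their mean was 0.041, against -0.0205 for libraries with different numbers. Pairs with control or SvbREP were not tested. A fit with the replicate block gave 898 calls, 659 of which were among the 665, and 322 lower ones. With a gene-length offset and the replicate block, 334 were lower. The block gave 290 calls for SvbREP against control, where the main fit gave 168. Why the block raised the number of calls in both comparisons was not tested. Of the genes named by the rule, 42 kept their call in every alternative, the test against a log2 fold of 1 included. In that test 60 lost it, and in the fits that left out a library 26 to 38 did. The cause was not tested. In the 6 libraries compared, 3 counts were 0.477 to 0.94 CPM, and levels under this are near the limit of detection.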

Other observations

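Genes described here were chosen after their values were seen. unc-5, the netrin receptor, had 440, 473 and 666 CPM in SvbACT, 39.8, 18.4 and 38.9 CPM in the hairpin-labelled libraries and 109 to 202 CPM in control (log2 fold change 4.03 ± 0.57 (SE), adjusted p 0.000792 in edgeR's quasi-likelihood test). Its 3 groups did not overlap. Piezo, a mechanically gated ion channel, had the opposite order, with 5.47, 5.23 and 11.4 CPM, then 71.8, 106 and 70.4 CPM, and 23.7 to 29.7 CPM in control (-3.48 ± 0.32, adjusted p 1.59e-06). Piezo was highest in SvbREP, at 106 to 168 CPM. IRSp53, an adaptor between membrane and actin, rose to 27.0, 21.6 and 78.6 CPM from 6.27, 2.62 and 1.11 CPM (3.78 ± 0.62, adjusted p 0.00105).

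ptc, ct, pnr and drm were picked for low values in SvbACT. SvbACT replicates 2 and 3, where ptc and ct had 0 counts, were also the 2 of the 6 libraries with the most genes at 0, and the part of this was not tested. ptc, the Hedgehog receptor, had 0.497, 0 and 0 CPM against 12.2, 18.2 and 2.38 CPM (-5.72 ± 1.40, adjusted p 0.0151). The homeodomain factor ct had 0.166, 0 and 0 CPM against 5.64, 3.93 and 2.22 CPM (-5.50 ± 1.51, adjusted p 0.0303). The GATA factor pnr had 3.31, 3.09 and 1.51 CPM against 30.7, 12.6 and 8.42 CPM (-2.68 ± 0.60, adjusted p 0.00741). The zinc-finger factor drm stood at 18.8 to 24.3 CPM against 101 to 270 CPM (adjusted p 0.0468). In control, pnr and drm reached 17.3 and 149 CPM.

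BigH1, an embryonic linker histone, had 19.0, 11.2 and 19.1 CPM against 0, 0.164 and 0.794 CPM (5.41 ± 0.94, adjusted p 0.000928). blanks, a double-stranded RNA binding protein known from testis, had 11.9, 9.74 and 5.11 CPM against 0 in all 3 hairpin-labelled libraries, at least 14-fold higher against a floor of 3 counts per library (adjusted p 0.00013). It was also present in SvbREP, at 9.81 to 20.0 CPM, and at most 0.419 CPM in control. lncRNA:CR44138 was at 0 in SvbACT and in control and at 3.14, 14.9 and 29.2 CPM in the hairpin-labelled libraries, at least 26.6-fold lower in SvbACT by the same floor (adjusted p 0.00142).

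Of 11 tested small nuclear RNAs, 3 were called higher in SvbACT, and SvbACT replicate 2 stood apart in those examined. snRNA:U11 had 45.4, 1015 and 109 CPM against 21.9, 21.8 and 20.3 CPM (4.19 ± 1.06, adjusted p 0.0396), and snRNA:U5:34A had 2.48, 55.6 and 0.568 CPM against 0, 0.656 and 0.477 CPM (5.43 ± 1.46, adjusted p 0.0347).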
